A study of Mus musculus with 30 samples.

Results

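Liver RNA from mice of 12 months was compared with liver RNA from mice of 2 months in the cohort that the study built around Egr-1, using the 8 libraries of those ages out of 30 libraries in the series. The 12-month group held WT_12m_H, WT_12m_L, KO_12m_H and KO_12m_L, and the 2-month group held WT_2m_H, WT_2m_L, KO_2m_H and KO_2m_L, so that 4 libraries stood against 4. KO mice carried floxed Egr-1 and an Alb-Cre transgene, whose albumin promoter is active in hepatocytes, so that other liver cells keep an intact gene. WT mice were littermates, and the line had been backcrossed to C57BL/6J. All mice were male and were fed chow under a cycle of 12 h of light and 12 h of darkness. H and L mark the hours at which the study found Egr-1 protein highest and lowest for that age. At 12 months these were ZT5 and ZT21, and at 2 months ZT13 and ZT17, where ZT is the number of hours after lights on. Age and hour of collection therefore cannot be told apart within these 8 libraries. A second set of 18 libraries, from C57BL/6J mice at 6 hours of the day and 3 ages, was used to measure each of them separately. Each combination of genotype, age and label had 1 library, and the sources do not say how the mice of a group were divided over or pooled in libraries. The age test took genotype as a block. Its p-values thus measure the spread that is left, between libraries that also differ in hour.

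The mouse liver stores fat in lipid droplets, whose surface proteins, among them the CIDE and perilipin families, set droplet size and turnover. It also times much of its metabolism by a clock in which Clock, Npas2 and Arntl drive Per and Cry genes that repress them. Many of its genes differ between the sexes through the pattern of growth hormone, and its secretory load is met by chaperones of the endoplasmic reticulum (ER).

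Total counts per library ran from 13747706 to 21116547, and the H library was the deeper of each pair. CPM gives the counts of a gene as a share of the library total, scaled so that libraries can be compared. Pearson correlations of log2 CPM were 0.970 to 0.984 within an age and 0.955 to 0.972 between ages, and the first principal component held 39.97% of the variance. Egr1 itself, the deleted gene and an immediate-early transcription factor, was at 2.56 CPM in WT_2m_H, 1.46 in WT_2m_L, 1.98 in KO_2m_H and 7.41 in KO_2m_L. At 12 months it was at 5.91 in WT_12m_H, 55.6 in WT_12m_L, 6.18 in KO_12m_H and 1.55 in KO_12m_L. The libraries labelled KO were thus below WT in 2 of the 4 pairs and above WT in the pairs 2m_L and 12m_H, and the counts do not tell where in the gene the reads lie. Egr1 was 1.87 log2 units higher at 12 months (SE 1.06), with an adjusted p of 0.278 in edgeR's quasi-likelihood test with Benjamini-Hochberg adjustment, and it did not pass the threshold of 0.05.

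After genes of low count were removed by edgeR, 13721 were left, of which 2099 (15.3%) had an adjusted p under 0.05, with 970 (7.07%) higher and 1129 (8.23%) lower at 12 months. With an absolute log2 fold change over 1.2 as well, 226 genes (1.65%) were higher and 114 (0.831%) lower. The 4 libraries of one age all lay above the 4 of the other in 2559 genes (18.7%). The median log2 fold change of all genes tested was 0.00. Every one of the 2099 called genes had a fitted change of the same sign in the libraries labelled WT and in those labelled KO. These genes were selected by a test over both genotypes together, so a shared sign was largely fixed by that selection. Whether the change itself differed between genotypes was tested as an age-by-genotype term. By edgeR 0 genes (0%) passed, 399 had an unadjusted p under 0.05, and DESeq2 called 2. Leaving out KO_2m_H lowered the count of genes called for age to 1247, leaving out WT_12m_H gave 1320 and leaving out KO_12m_H gave 1360.

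Genes that move with the hour were set apart first. In the time course, 6 libraries of ZT5 and ZT21 were compared with 6 libraries of ZT13 and ZT17, with age as a block, and 461 of 13074 genes (3.53%) passed, with 1.91% higher and 1.61% lower at ZT5 and ZT21. Of the genes called higher in the cohort, 902 could be looked up there. Of these, 101 (11.2%) were also higher at ZT5 and ZT21, against 1.93% of all cohort genes in that test, and 1 was lower. Of 1111 genes called lower, 67 (6.03%) were also lower at ZT5 and ZT21, against 1.64%, and 4 were higher. Together with the 19 genes of the 4 clock lists, 180 called genes were set apart. That left 866 higher and 1053 lower. A test for a 24 h cosine wave over all 18 libraries of the time course, used in place of the hour test, left 701 higher and 854 lower.

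Clock genes changed widely. The activators Npas2, Arntl and Clock, which form the positive arm of the clock, were all higher at 12 months. Npas2 was between 0.0512 and 0.241 CPM in the 2-month libraries and at 9.11, 3.09, 9.49 and 4.12 CPM in WT_12m_H, WT_12m_L, KO_12m_H and KO_12m_L. The ages did not overlap, and the log2 fold change was 5.78 (SE 0.60, adjusted p 0.000647 by edgeR with Benjamini-Hochberg adjustment). At 2 months it rested on 1 to 5 reads per library. Arntl was 2.14 (SE 0.46) and Clock 0.74 (SE 0.11) log2 units higher.

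Of the 8 repressors of the clock, 5 were lower and 0 higher. Per2 was at 41.5, 45.1, 35.7 and 35.1 CPM in the 2-month libraries, in the order WT_2m_H, WT_2m_L, KO_2m_H and KO_2m_L. It was at 10.1, 11.5, 10.1 and 12.4 CPM in the same order at 12 months, and the log2 change was -1.83 (SE 0.11, adjusted p 7.08e-05 by edgeR with Benjamini-Hochberg adjustment). All 2-month values were above all 12-month values. Per3 (-2.72), Ciart (-2.59), Per1 (-1.75) and Cry2 (-0.58) also fell, while Cry1, Bhlhe40 and Bhlhe41 did not pass. Among transcription factors that carry the clock to other genes, Dbp (-3.21) and Tef (-1.54) were lower, whereas Hlf (-0.46) and Nfil3 (0.58) did not pass. Of the nuclear receptors of the clock, Nr1d2 (-0.87) was lower, and Nr1d1 (-0.02) and Rora (0.33) did not pass.

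Genes timed by the clock followed, with 9 of 17 lower and 3 higher. The deubiquitinase Usp2 was at 46.5, 17.1, 40.8 and 67.2 CPM at 2 months and at 3.15, 4.25, 3.26 and 6.69 CPM at 12 months, in the order above. No 12-month library reached a 2-month one, and the log2 change was -3.30 (SE 0.36). The kinase Wee1 (-1.94) and Por, the electron donor of cytochrome P450 enzymes (-1.82), fell as well. The elongase Elovl3 was 2.05 log2 units higher (SE 0.29). All of Usp2, Wee1, Por and Elovl3 passed the hour test in the direction of the cohort. In the time course at matched hours 0 of the 19 clock genes passed between 12 and 2 months in edgeR's test. In a joint fit of the 8 cohort libraries and the 18 of the time course, with terms for the hour, 0 of the 19 passed, and 768 genes were called in all.

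**Figure D1:**
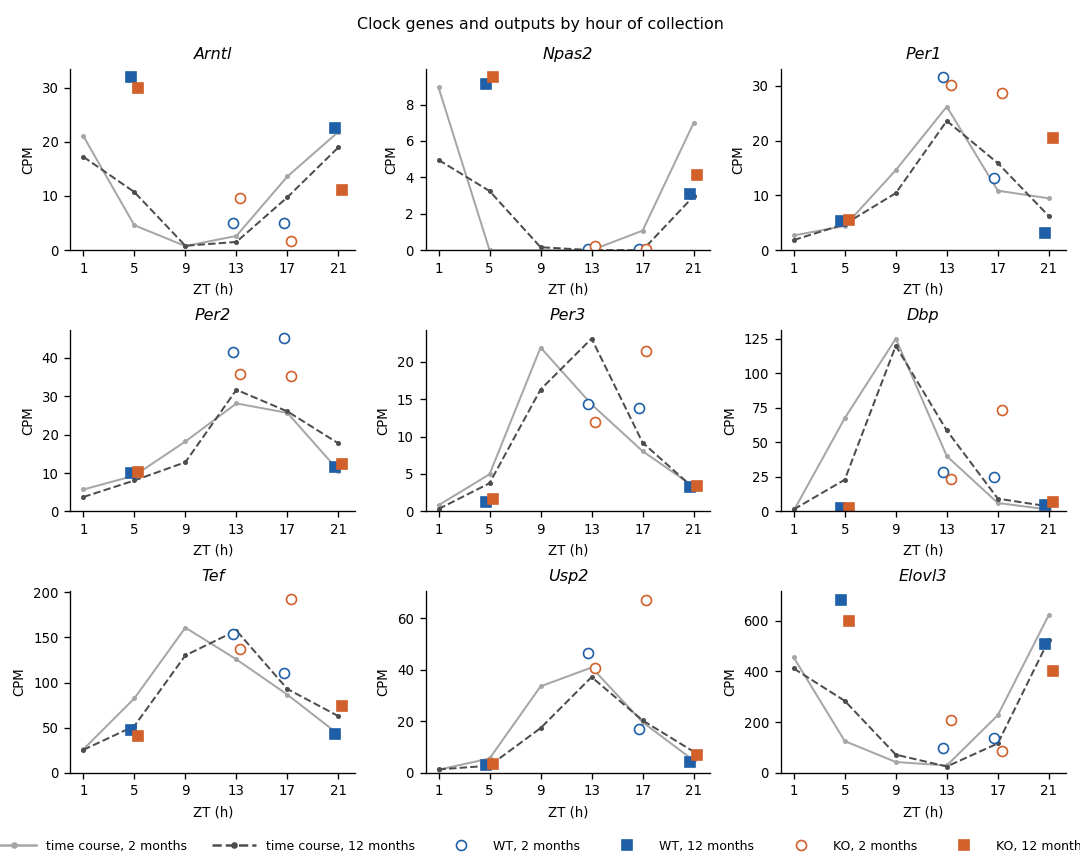
Level of 9 clock genes and clock outputs in CPM (vertical axis) against ZT in hours (horizontal axis). Lines join the time course libraries of 2 and 12 months, open circles are cohort libraries of 2 months and filled squares those of 12 months, with WT in blue and KO in orange; each set was normalised on its own. Usp2 of the 12-month cohort libraries lies near the lines, KO_2m_L at ZT17 stands above them for Usp2, Per1, Per3, Dbp and Tef, and Arntl and Npas2 at ZT5 stand above both lines.

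Single cohort libraries stood apart from the others of their age in clock genes. KO_2m_L, of ZT17, held Dbp at 73.4 CPM, and the other 2-month libraries held 23.3 to 28.2. The time course held 6.10 to 73.8 CPM of Dbp at ZT13 and ZT17. Per1 in KO_12m_L was at 20.5 CPM, and the other 12-month libraries held 3.09 to 5.59. The time course held 4.41 to 9.45 CPM of Per1 at ZT5 and ZT21. Without KO_2m_L, 1506 genes passed the age test, with 3 clock activators higher, 5 repressors lower and 1 of the 4 nuclear receptors lower, where 2 were lower with all libraries. Without KO_12m_L 1797 genes passed.

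Promoter sequences are shown for 3 of the clock genes that were lower, since the clock activators bind the E-box CACGTG. They are the 250 bases before the RefSeq start in GRCm38.p6, 5′ to 3′ on the strand of the gene, with each CACGTG in capitals.
Per1, chr11:69098699-69098948, plus strand: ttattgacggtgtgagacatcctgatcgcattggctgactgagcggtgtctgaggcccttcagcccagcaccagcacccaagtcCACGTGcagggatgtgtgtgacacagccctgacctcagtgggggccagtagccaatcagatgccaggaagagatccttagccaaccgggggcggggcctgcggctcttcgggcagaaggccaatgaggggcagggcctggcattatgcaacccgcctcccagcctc
Tef, chr15:81802423-81802672, plus strand: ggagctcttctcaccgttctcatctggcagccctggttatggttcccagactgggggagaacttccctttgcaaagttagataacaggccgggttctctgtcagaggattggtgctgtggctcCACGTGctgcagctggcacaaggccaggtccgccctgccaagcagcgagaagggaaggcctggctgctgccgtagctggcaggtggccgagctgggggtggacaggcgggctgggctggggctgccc
Ciart, chr3:95882229-95882478, minus strand: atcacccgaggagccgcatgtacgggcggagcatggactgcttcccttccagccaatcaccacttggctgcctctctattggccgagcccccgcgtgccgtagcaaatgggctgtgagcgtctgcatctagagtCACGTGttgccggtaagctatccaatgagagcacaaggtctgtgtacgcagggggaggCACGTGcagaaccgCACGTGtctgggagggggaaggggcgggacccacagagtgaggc
RefSeq promoter windows of 300 bases, from 250 before to 50 after the start, were found for 16 of the 19 clock genes. The word CACGTG, which reads alike on both strands, was in the windows of 5 of the 16, against 8.09% of all 27025 genes with a window and 11.6% of the tested genes. These 5 were Bhlhe41, Ciart, Cry1, Per1 and Tef. The D-box TTATGTAA, searched on both strands, was in that of Per3 alone and in 1.11% of all genes.

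At matched hours, age was tested again in the time course, in 6 libraries of 12 months against 6 of 2 months with ZT as a block. There 1960 of 13039 genes passed, 7.99% higher and 7.04% lower at 12 months, and no library is shared between the sets. Of 909 genes called higher in the cohort and tested there, 220 (24.2%) were also called higher, against 7.97% of all cohort genes in that test, and 42 were called lower. Of 1106 genes called lower, 255 (23.1%) were also called lower, against 7.00%, and 26 were called higher. Seen from the other side, 21.5% of the 1024 genes higher in the time course and 28.3% of the 900 lower ones were called in the same direction in the cohort. With the hour genes set apart, 206 of 805 higher genes (25.6%) and 241 of 1030 lower genes (23.4%) were called in both sets.

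**Figure D2:**
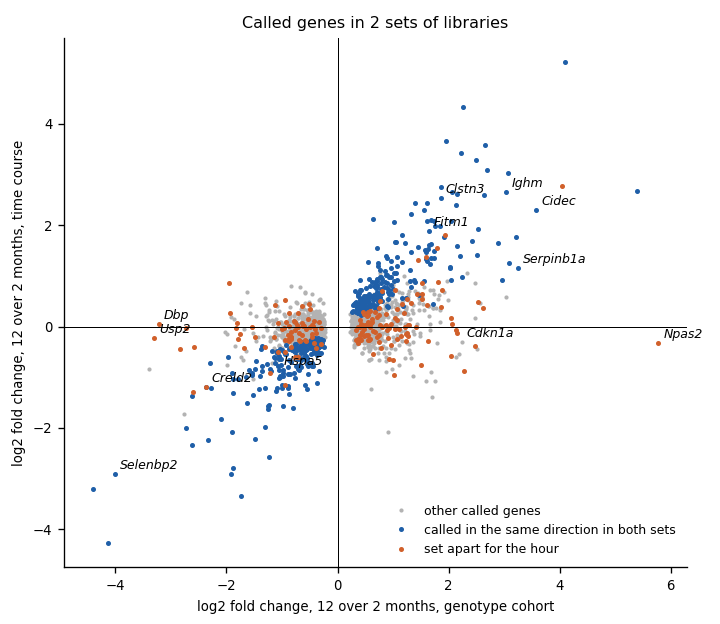
Change between 2 and 12 months, as log2 of the fold, in the genotype cohort (horizontal axis) and at matched hours in the time course (vertical axis), for every gene called in the cohort and tested in both. Blue points were called in the same direction in both sets, orange points were set apart for the hour and grey points are the other called genes. Cidec and Ighm lie high and Selenbp2 and Creld2 low in both, whereas Npas2, Dbp and Usp2 lie between -0.32 and 0.05 in the time course.

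A gene of lipid droplets gave the largest rise among the genes named here. Cidea, a CIDE protein that joins small droplets into large ones, was listed at 0, 0.0696, 0.916 and 0.192 CPM in WT_2m_H, WT_2m_L, KO_2m_H and KO_2m_L. These values are 0, 1, 19 and 3 reads. At 12 months it was at 86.3, 46.7, 129.8 and 88.3 CPM in WT_12m_H, WT_12m_L, KO_12m_H and KO_12m_L. Each 12-month library lay far above each 2-month one, and both 2-month KO libraries held more reads than the WT library of their hour. The log2 fold change was 8.12 (SE 0.48, adjusted p 7.08e-05 by edgeR with Benjamini-Hochberg adjustment), a size that rests on the few reads at 2 months. In the time course Cidea did not pass the filter on low counts, with 0 to 0.0688 CPM at 2 months and 0.564 to 4.52 CPM at 12 months.

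Cidec, a CIDE protein of large droplets, showed the smallest p with Ighm. It was at 4.86, 4.80, 6.32 and 5.24 CPM at 2 months and at 52.9, 58.9, 80.5 and 63.4 CPM at 12 months, in the same order of libraries. The ages stood far apart, and the log2 fold change was 3.58 (SE 0.11, adjusted p 8.23e-07 by edgeR with Benjamini-Hochberg adjustment). At matched hours in the time course it was 2.30 log2 units higher (SE 0.22, adjusted p 3.91e-05), from 0.826 to 3.44 CPM at 2 months to 4.77 to 19.4 CPM at 12 months.

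Fitm1, which takes part in the budding of droplets, was at 61.1 to 109 CPM at 2 months and 242 to 278 at 12 months, a log2 change of 1.64 (SE 0.13). Plin4, a perilipin of the droplet surface, rose from 2.61 to 5.30 CPM to 11.6 to 17.7, a change of 2.03 (SE 0.21). Both were also higher in the time course, by 1.88 (SE 0.09) and 1.18 (SE 0.26). Plin2, the main perilipin of hepatocytes, was at 333 to 360 CPM at 2 months and 590 to 755 at 12 months. Its change of 0.96 (SE 0.10) went with a higher level at ZT5 and ZT21 in the hour test (0.77, adjusted p 0.0289 by edgeR), and at matched hours it was 0.05 (SE 0.12) with no call. In all, 5 of 16 tested droplet genes (31.3%) were higher and 1 lower, with a median log2 change of 0.18. Left-out libraries gave 5 to 6 higher, with 5 without KO_2m_L, and the joint fit gave 4.

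**Figure D3:**
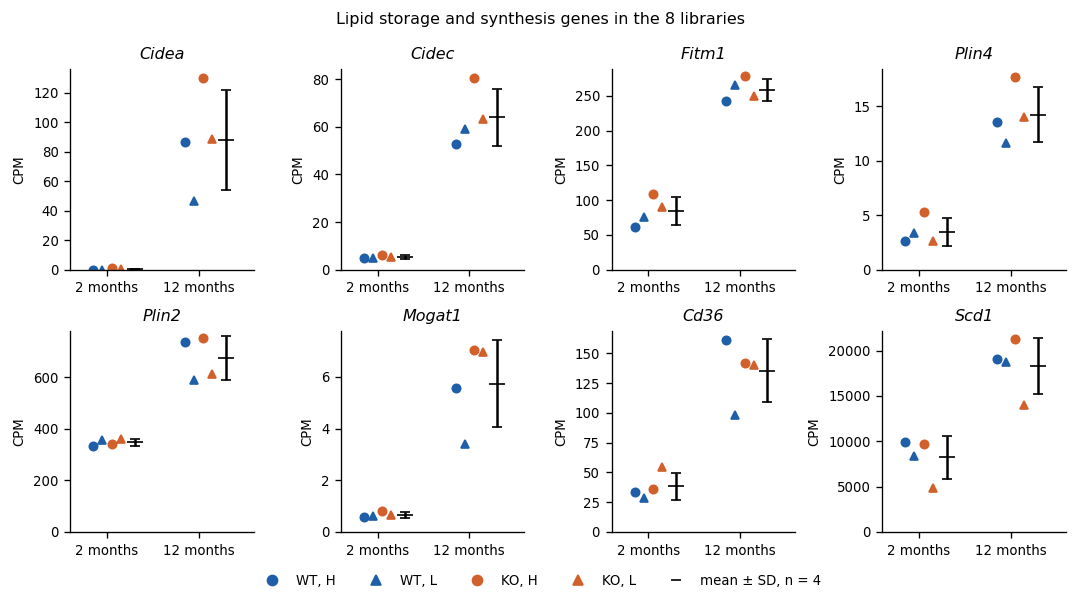
Level in CPM of 8 genes of fat storage, uptake and synthesis (vertical axes, each from 0) in the 4 libraries of 2 months and the 4 of 12 months, with mean ± SD (n = 4) in black. WT is blue and KO orange, circles are H and triangles L; in all 8 panels each 12-month library lies above each 2-month library.

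Of 20 genes of fatty acid and triglyceride synthesis, 5 were higher and 3 lower in the cohort, with a median of 0.02. At matched hours 11 of the 20 were higher and 0 lower, with a median of 0.54, and the joint fit gave 4 higher and 0 lower. Mogat1, which adds a fatty acid to monoacylglycerol, was at 0.563 to 0.820 CPM at 2 months and 3.41 to 7.02 at 12 months, a log2 change of 3.09 (SE 0.23). Scd1, the desaturase that makes oleate, was at 4843 to 9906 CPM and 13987 to 21272 CPM (1.16, SE 0.22). Me1, a source of NADPH (0.97), and Elovl5, an elongase (1.82), were also higher. All 4 were called higher at matched hours, and Elovl5 also passed the hour test. Thrsp, a lipogenic regulator, was lower (-0.97, SE 0.14), and at matched hours it was 0.24 (SE 0.29) with no call. Of 26 genes of fatty acid uptake and oxidation, 4 were higher and 3 lower. Among them Cd36, a fatty acid transporter, went from 28.4 to 54.7 CPM to 98.6 to 161 CPM (1.85, SE 0.19). Its change at matched hours was 0.32 (SE 0.10, adjusted p 0.0517 by edgeR) and did not pass. Pdk4, which blocks pyruvate oxidation (2.24), and Acaa1b, a peroxisomal thiolase (0.71), were higher in both sets. Pdk4 overlapped between ages in the cohort, with 52 to 181 reads at 2 months. At 12 months it held 837 reads in WT_12m_H, 257 in WT_12m_L, 938 in KO_12m_H and 127 in KO_12m_L. In the time course its mean was 13.1 CPM at ZT5 and ZT21 and 5.98 CPM at ZT13 and ZT17. Of 21 genes of cholesterol synthesis and uptake, 0 were higher and 1 was lower, and in the time course 9 of the 21 were higher. Their median change was 0.50 in the H libraries and -0.61 in the L libraries, with opposite signs in 17 of the 21. Over all 13721 genes the signs were opposite in 5454. Fitted alone, the H libraries gave 14 higher and 1 lower, and the L libraries 0 higher and 7 lower. Over all 13721 genes the H libraries alone called 1735 higher and 2279 lower, and the L libraries alone 324 and 378.

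Other genes with the smallest p among the higher ones have no common list. Serpinb1a, an inhibitor of neutrophil proteases, was at 3.12, 1.88, 3.81 and 4.09 CPM at 2 months and at 36.0, 24.3, 29.0 and 32.8 at 12 months, a change of 3.25 (SE 0.20). The 2 ages did not overlap. Clstn3, a calsyntenin (1.86, SE 0.11), Raet1d, a ligand of the immune receptor NKG2D (2.03, SE 0.14), and Zfp982, a zinc finger protein (1.73, SE 0.12), were higher as well. At matched hours all 4 were higher as well, Clstn3 by 2.54 (SE 0.19). Among hour genes the smallest p belonged to Enpp3 (1.198), Camk1d (1.53), Smagp (1.03), Slc22a15 (1.28) and Slc17a4 (1.06).

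Some markers of B and plasma cells were higher. Ighm, the heavy chain of IgM, was at 8.30, 11.0, 18.7 and 18.2 CPM in WT_2m_H, WT_2m_L, KO_2m_H and KO_2m_L, and at 83.6, 81.6, 143 and 148 CPM in the 12-month libraries in that order. The KO libraries held more of it than the WT libraries at both ages, and the change by age was 3.04 (SE 0.10, adjusted p 8.23e-07 by edgeR with Benjamini-Hochberg adjustment). Of 13 B and plasma cell markers tested, 6 (46.2%) were higher and 0 lower, with a median of 1.40. They included Ms4a1, the surface protein CD20 (1.46), and Cd79a and Cd79b, the signalling chains of the B cell receptor (1.02 and 1.17). Their summed level was 35.4 to 98.4 CPM at 2 months and 139 to 291 CPM at 12 months, left-out libraries gave 4 to 7 of them, and the joint fit gave 3. At an unadjusted p under 0.05 by edgeR, 9 of the 13 were higher and 1 lower. The 7 that did not pass included Jchain, Ighg2b and Igha. Igha held 448, 71, 113 and 341 reads at 2 months and 72, 51, 165 and 123 at 12 months, in the order above. In bulk RNA, more cells of a type and more RNA per cell cannot be told apart. Of 11 T and NK cell markers 0 passed by edgeR, with 1 higher and 1 lower at an unadjusted p under 0.05 and 1 higher by DESeq2. Of 18 macrophage and Kupffer cell markers 1 was higher (Gpnmb, 1.62) and 1 lower (Clec4f, -0.35). In 7 of the 8 fits that left out 1 library 0 of the 18 were higher, and in 7 of the 8 fits 0 were lower, and the joint fit gave 0 of either.

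Of 16 genes of senescence and damage response, 5 (31.3%) were higher and 0 lower, and 3 were higher in the joint fit. Cdkn1a, the cell cycle inhibitor p21, was at 10.5, 7.02, 8.92 and 4.35 CPM at 2 months and 44.5, 27.9, 39.95 and 33.1 CPM at 12 months, a change of 2.24 (SE 0.25). Cdkn2a, which encodes p16 and ARF, rose by 3.23 (SE 0.42) from 1 to 6 reads per library to 17 to 42 reads. Gdf15, a stress hormone (1.35), Trp53inp1, a p53 target (0.82), and the macrophage elastase Mmp12 (1.92) were also higher. Of the 4 tested at matched hours 0 were higher by edgeR, and Cdkn1a was -0.32 (SE 0.28) there and ranged from 1.37 to 22.3 CPM over the 2-month hours. Cdkn2a did not pass the low-count filter there, with 0.067 to 0.477 CPM at 2 months and 0.628 to 1.61 CPM at 12 months.

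Of 17 genes of glutathione metabolism and NRF2, the regulator of antioxidant genes, 7 (41.2%) were higher, and 6 of the 7 were higher at matched hours too. The joint fit gave 4. Gclc, the rate-limiting enzyme of glutathione synthesis, went from 176 to 289 CPM to 445 to 550 CPM (1.18, SE 0.12). The glutathione transferases Gsta2 (1.08), Gstm4 (0.90) and Gstm1 (0.77) rose with it. Gstp1, another transferase, fell from 1446 to 2015 CPM to 575 to 1045 CPM (-1.23, SE 0.18) and was 0.28 (SE 0.13) with no call in the time course. Of the 13 genes encoded in mitochondrial DNA, all had a positive fitted change and 6 (46.2%) passed, among them mt-Nd5 (0.74) and mt-Co1 (0.68). Their sum was 31017 to 50474 CPM at 2 months and 47201 to 65332 CPM at 12 months, which overlapped through WT_2m_L. Without KO_2m_L 2 of them passed, without WT_12m_L 3, and in the joint fit 3, and at matched hours 0 were higher and 2 lower.

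Among the lower genes, chaperones and folding enzymes of the ER changed together. Creld2, a secreted ER stress protein, was at 76.8, 153, 180 and 135 CPM in WT_2m_H, WT_2m_L, KO_2m_H and KO_2m_L, and at 24.1, 27.8, 23.98 and 29.2 CPM at 12 months. WT_2m_H was the lowest of its age and still above all 12-month libraries. The change was -2.36 (SE 0.22, adjusted p 0.000486 by edgeR with Benjamini-Hochberg adjustment). Hspa5, the ER chaperone BiP, was at 869, 1349, 1333 and 1177 CPM and then at 579, 659, 497 and 535 CPM, a change of -1.06 (SE 0.15). The 2 ages did not overlap. Manf (-1.196), Dnajb11 (-0.94) and Dnajc3 (-0.60), the first a secreted factor and the others co-chaperones of BiP, were lower as well. Of 20 genes of the unfolded protein and amino acid stress response, 10 (50.0%) were lower and 0 higher, with a median of -0.58. All 10 were also lower at matched hours, and 0 passed the hour test in that direction. Left-out libraries gave 8 to 11 lower, with 9 without KO_2m_L, and the joint fit gave 10.

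A promoter word was looked for in these genes, the ER stress response element, CCAAT and CCACG parted by any 9 bases, to which ATF6 and its partner NF-Y bind. The promoters of Creld2 and Hspa5, the genes described above, are shown as the 250 bases before the RefSeq start in GRCm38.p6, with the fixed bases of the element in capitals. In Creld2 the element lies on the opposite strand.
Creld2, chr15:88819396-88819645, plus strand: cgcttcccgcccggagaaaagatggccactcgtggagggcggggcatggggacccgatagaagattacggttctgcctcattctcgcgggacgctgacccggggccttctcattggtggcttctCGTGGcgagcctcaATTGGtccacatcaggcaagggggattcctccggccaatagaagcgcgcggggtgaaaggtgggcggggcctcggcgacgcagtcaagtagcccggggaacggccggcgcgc
Hspa5, chr2:34771840-34772089, plus strand: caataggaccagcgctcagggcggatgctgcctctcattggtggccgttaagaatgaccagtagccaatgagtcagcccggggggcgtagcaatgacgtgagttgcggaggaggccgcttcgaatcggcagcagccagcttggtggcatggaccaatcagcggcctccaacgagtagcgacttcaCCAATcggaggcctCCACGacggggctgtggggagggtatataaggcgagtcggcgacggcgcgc
The matches in 4 other genes of the list are given alone, in the direction of the element, and for Hsp90b1, whose window holds 2, the first is given.
Calr, chr8:84847075-84847093: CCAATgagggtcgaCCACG
Dnajc3, chr14:118937827-118937845: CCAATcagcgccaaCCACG
Hsp90b1, chr10:86705638-86705656: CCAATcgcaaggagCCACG
Pdia6, chr12:17266491-17266509: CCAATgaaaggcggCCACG
On either strand the element was in 6 of 9 lower genes of the list that had a RefSeq window and in 0 of 10 that did not pass. It was in 0.137% of all genes with a window and 0.186% of the tested ones. The element is named for the response that defines the list, so its share in the list is no independent result. Those that did not pass include genes of amino acid stress, such as Asns, so the 2 parts of the list differ in kind. Over all genes, 19 tested genes held it. Of these 9 were lower (47.4%, against 8.23% of all tested genes), 1 was higher and 9 did not pass. Besides the 6 above, the lower ones were Derl3 (-2.76) and Syvn1 (-1.06), of ER-associated degradation, and Alg12 (-0.87), of glycan assembly. At matched hours 7 of the 9 were lower.

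Genes with higher expression in male liver were another group that fell in both sets. Selenbp2, a selenium-binding protein, was at 944, 1239, 893 and 483 CPM at 2 months and at 68.5, 163, 21.5 and 27.8 CPM at 12 months, in the order WT_H, WT_L, KO_H and KO_L. All 12-month libraries were below all 2-month ones, and the KO libraries of 12 months were the lowest. The change was -4.01 (SE 0.43, adjusted p 0.000769 by edgeR with Benjamini-Hochberg adjustment), and it was -2.91 (SE 0.17) at matched hours. Selenbp1, a near copy, may share reads with it. Ugt2b38, a glucuronosyltransferase (-1.80), Cyp4a12b, a fatty acid hydroxylase (-1.31), Cyp7b1, an oxysterol hydroxylase (-1.002), and Cyp2d9 (-0.95) fell too, and they belong to families of close paralogs. Of 16 male-biased genes, 10 (62.5%) were lower and 1, the hour gene Elovl3, was higher. Of these 10, 8 were lower at matched hours, left-out libraries gave 8 to 10, and the joint fit gave 10. Of 10 female-biased genes tested, 2 were higher, Abcd2 (1.46) and Cyp2a22 (2.18), and 1 was lower, Fmo2 (-0.92), which passed the hour test. Cyp2a22 overlapped between ages, with 0.773 CPM in WT_12m_L and 1.98 in KO_2m_L, and was -0.53 (SE 0.25) with no call at matched hours. Without KO_2m_H 0 female-biased genes were higher.

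Of 14 genes of the growth hormone and IGF axis, 5 were lower and 3 higher. Igfals, the subunit that keeps IGF in the blood, was at 133 to 152 CPM at 2 months and 63.2 to 80.1 at 12 months (-1.02, SE 0.09), and it was -0.65 (SE 0.12) at matched hours. The binding proteins Igfbp2 (-1.04) and Igfbp4 (-0.88) and the feedback inhibitor Socs2 (-1.15) were lower. Igfbp2 overlapped between ages, with 7255 reads in WT_12m_L and 5673 in KO_2m_L. Its mean in the time course was 458 CPM at 2 months and 499 CPM at 12 months. At matched hours 2 of the 5 lower genes were lower and 0 of the 3 higher genes were higher. Stat5b, which carries the growth hormone signal, was higher in the cohort (0.58) and lower at matched hours (-0.26), and it passed the hour test with a higher level at ZT5 and ZT21.

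Enzymes of amino acid breakdown and the urea cycle were lower in 13 of 22 cases (59.1%) and higher in 1, with a median of -0.44. Cps1, the first enzyme of the urea cycle, was at 4121, 3949, 4222 and 3907 CPM at 2 months and at 2112, 2269, 1885 and 1682 CPM at 12 months, a change of -1.03 (SE 0.10). Asl, of the same cycle, was at 912 to 1177 CPM and then at 405 to 607 CPM (-1.06, SE 0.11). Neither gene overlapped between ages. Prodh, of proline breakdown (-0.66), and Gpt, alanine transaminase (-0.63), were lower. At matched hours 5 of the 13 were lower, Cps1 by -0.44 (SE 0.09), whereas Asl was -0.06 (SE 0.11). Left-out libraries gave 9 to 12, with 10 without KO_2m_L, and the joint fit gave 3. The 12 hepatocyte markers, Cps1 among them, held 5 lower genes and 1 higher, and their sum was 75648 to 104890 CPM at 2 months and 56966 to 98764 at 12 months.

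**Figure D4:**
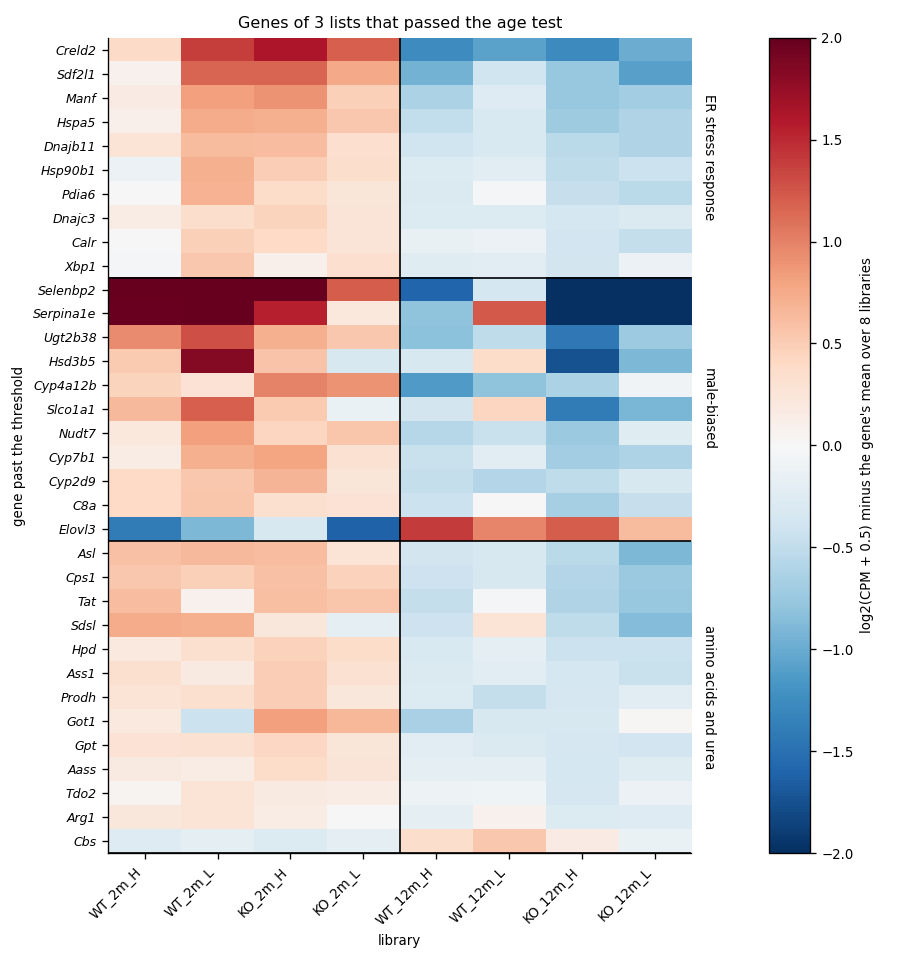
Log2(CPM + 0.5) minus the mean of each gene over the 8 libraries (colour, red above and blue below the mean) for genes of 3 lists that passed the age test. Rows are genes, columns are libraries, and a vertical line parts 2 months from 12 months; the colour scale stops at -2 and 2, Creld2 and Selenbp2 step down at 12 months in all libraries, and Elovl3 and Cbs run the other way.

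Among 18 cytochrome P450 and drug metabolism genes 6 were lower and 1 higher. Cyp1a2, which metabolises caffeine, was at 661 to 852 CPM and then at 297 to 379 CPM (-1.13, SE 0.11), and Cyp2f2 changed by -0.83 (SE 0.10). Both were lower at matched hours. Cyp2a5 (-1.68) and the receptor Nr1i3 (-0.45) passed the hour test in the same direction. Of 15 genes of bile acid synthesis and transport 5 were lower and 3 higher. Cyp7a1, the rate-limiting enzyme of bile acid synthesis, was at 130.0 to 173 CPM at 2 months and 46.6 to 86.0 at 12 months (-1.17, SE 0.14), and was 0.12 (SE 0.19) with no call in the time course. The bile salt pump Abcb11 was higher (0.54) and is an hour gene. Of 17 genes of glucose metabolism 2 (11.8%) were higher and 2 (11.8%) lower, against 7.07% and 8.23% of all genes tested. The glycogen synthase Gys2, lower in the cohort (-1.14), passed the hour test.

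Genes that follow body temperature over the day, mostly heat-shock genes, were lower in 7 of 12 cases (58.3%), and in 1 in a joint fit of both sets with hour terms. Hsph1 (-1.33) and Hspa8 (-0.89), both cytosolic chaperones, and Dnaja1 (-0.78), a co-chaperone, were among them. By edgeR 0 of the 7 passed the hour test, whose estimates for Hsph1, Hspa8 and Dnaja1 were -0.75, -0.62 and -0.56, and none was lower at matched hours. The cochaperone Fkbp5, a target of glucocorticoids, was at 60.9 to 86.3 CPM at 2 months and 19.9 to 26.6 at 12 months (-1.68, SE 0.13). It did not pass the hour test (-1.13, adjusted p 0.158 by edgeR) and was -0.06 (SE 0.21) at matched hours.

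Of the remaining lower genes with the smallest p, the zinc transporter Slc39a4 went from 52.4 to 63.9 CPM to 15.8 to 25.9 CPM (-1.46, SE 0.12). Ttc39c (-1.35), the kinase Pim3 (-1.14), the glucose-6-phosphate transporter Slc37a4 (-1.09) and Creb3l3, an ER-bound transcription factor of lipid genes (-0.81), fell as well. These 5 genes were lower at matched hours too, by -0.68, -0.38, -0.59, -0.48 and -0.46. Tspan4 (-1.25), Nop2, a nucleolar methyltransferase (-1.06), and Aqp11, an aquaporin of the ER (-0.91), were not called there.

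Collagens and other matrix genes form the fibrous scaffold around liver cells. In 21 of 26 the fitted change with age had opposite signs in H and in L libraries, as it did in 5454 of all 13721 genes. Of the 26, 0 passed the age test over the 8 libraries by edgeR or by DESeq2, 1 had an unadjusted p under 0.05, and the median was -0.08. Col1a1, a chain of collagen I, was at 12.8 CPM in WT_2m_H and 20.3 in KO_2m_H, and at 23.7 in WT_12m_H and 33.9 in KO_12m_H. In the L libraries it was at 28.5 in WT_2m_L and 35.3 in KO_2m_L, and at 9.66 in WT_12m_L and 15.5 in KO_12m_L. Within a genotype the older library was thus the higher one for H and the lower one for L. The H libraries set ZT5 at 12 months against ZT13 at 2 months, and the L libraries ZT21 against ZT17. A term for age by label, added after the data were seen, was fitted with genotype as a block and cannot part age from these hours. It was called in 76 of 13721 genes (0.554%), with 2012 at an unadjusted p under 0.05, and DESeq2 called 282. Of the 26 matrix genes 7 passed, Col1a1, Col1a2, Col3a1, Col6a1, Col6a2, Eln and Loxl1. In the same fit 10 matrix genes were higher at 12 months in H (5.81% of all genes were) and 0 lower (7.46%), and in L 0 were higher (1.78%) and 11 lower (2.12%).

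For Col1a1 the change was 0.82 (SE 0.13) in H and -1.37 (SE 0.13) in L, and the difference of -2.19 (SE 0.18) had an adjusted p of 0.00349 by edgeR with Benjamini-Hochberg adjustment. Col3a1 gave 0.67 (SE 0.13) and -1.14 (SE 0.13). The median over the 26 genes was 0.66 in H and -0.87 in L, against 0.01 and -0.00 over all genes. At matched hours 10 were lower and 2 higher, Col1a1 by -1.47. Without KO_2m_L 11 matrix genes passed the age-by-label term and without WT_2m_L 6 did, but without any of the other 6 libraries 1 or 2 did. Stellate cell and fibroblast markers held 6 higher genes of 13 in H and 1 lower in L.

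**Figure D5:**
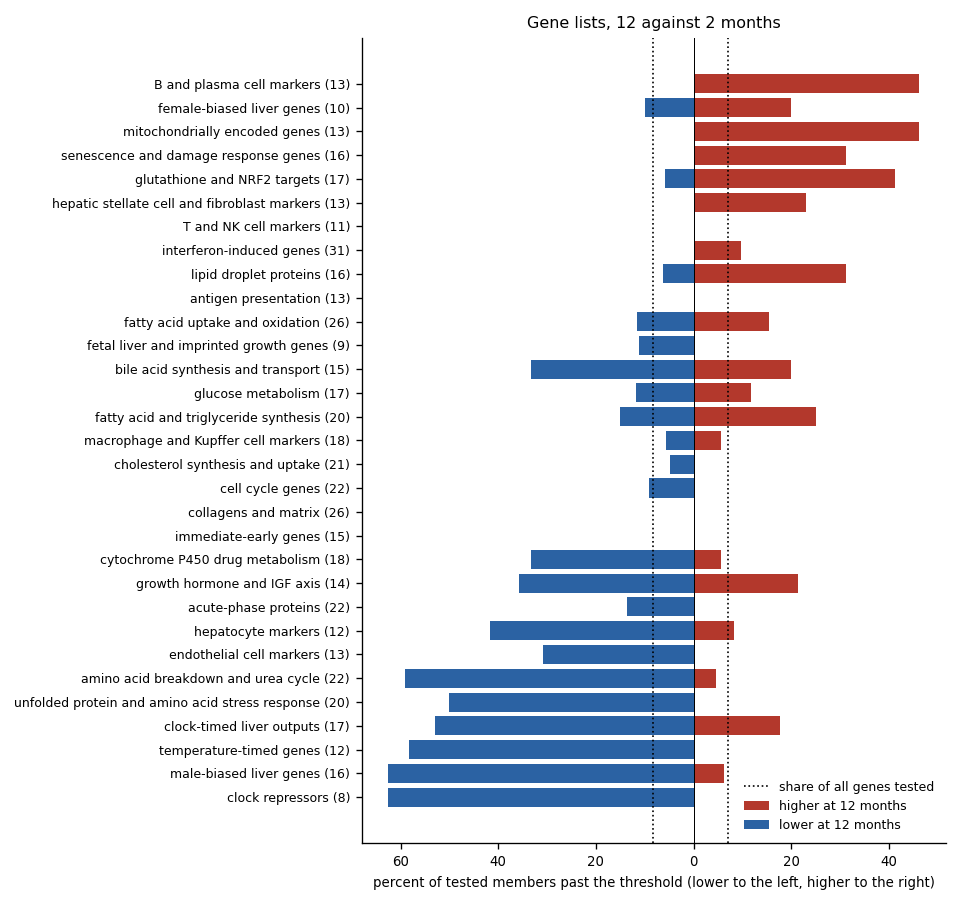
Share of tested members that were higher (red, to the right) or lower (blue, to the left) at 12 months, in percent, for the 31 lists with at least 8 tested members; the number tested is in brackets, lists are ordered by their median log2 fold change, and dotted lines mark the 7.07% and 8.23% of all genes. B and plasma cell markers reach 46.2% on the right and male-biased genes 62.5% on the left, while the collagens and matrix bar is empty on both sides.

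Of 31 interferon-induced genes 3 (9.68%) were higher, Ifi27 (0.71), Rtp4 (0.61) and Gbp3 (0.57), against 7.07% of all genes tested, and 0 were lower. The 31 genes summed to 1200 to 1409 CPM at 2 months. At 12 months the sum was 1020 CPM in WT_12m_H, 1423 in WT_12m_L, 1638 in KO_12m_H and 1823 in KO_12m_L. Reads of Ifi27 were 2541, 2006, 3655 and 2431 at 2 months. At 12 months they were 2646, 3357, 6762 and 5304, in the order WT_H, WT_L, KO_H and KO_L. With any one of KO_2m_H, KO_2m_L, KO_12m_H or KO_12m_L left out, 0 of the 31 passed. At matched hours 20 of the 31 were lower, Rtp4 (-0.38) and Gbp3 (-0.65) among them, and 1, Ifi27, was higher. Of 15 immediate-early genes, the class to which Egr1 belongs, and of 13 antigen presentation genes, 0 passed by edgeR. At an unadjusted p under 0.05 there were 1 higher and 1 lower of the former and 1 higher of the latter, and DESeq2 called 1 higher in each. Of 22 acute-phase proteins 3 were lower, Saa4 (-1.04), Serpina3n (-0.66) and Itih3 (-0.59). The median of the acute-phase list was 0.17 in H and -0.47 in L, with opposite signs in 14 of the 22 and in 5454 of all 13721 genes. The H libraries alone gave 9 higher and 4 lower, and the L libraries alone 0 higher and 9 lower. Over all 13721 genes these fits called 1735 higher and 2279 lower in H, and 324 and 378 in L. Of 22 cell cycle genes 2 (9.09%), Ccnd1 (-0.95) and Tk1 (-0.91), were lower, close to the 8.23% of all genes tested. At matched hours 0 of the 2 were called lower, and the joint fit gave 0. Among 13 endothelial markers 4 were lower, Lyve1 (-1.13), Vwf (-0.70), Gpr182 (-0.51) and Pecam1 (-0.37), and without KO_2m_L 2 were. Without KO_12m_H or without WT_12m_H 1 was, and the joint fit gave 0. The H libraries alone gave 13 lower, and they called 2279 of all 13721 genes lower. At matched hours Vwf was called lower of the 4. Of 3 adipocyte markers tested, Cfd, the protease adipsin, was at 2.24 to 4.24 CPM at 2 months and 6.89 to 20.6 at 12 months (2.15, SE 0.25), and Car3, also abundant in liver, was higher (0.68). Among 9 fetal and imprinted genes 1 (11.1%), Meg3, was lower (-1.30), from 11 to 32 reads per library at 2 months to 5 to 14 at 12 months. With WT_2m_H, KO_2m_L or any one of the 12-month libraries left out, 0 of the 9 were lower, and the joint fit gave 0. Of the neutrophil, dendritic, bile duct and red cell markers 0 passed by edgeR. Unadjusted, 0, 3, 2 and 2 of these had a p under 0.05, and DESeq2 called 0, 0, 1 and 1.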

How the data were processed

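The authors trimmed reads with fastp, aligned them to mm10 with HISAT2 and counted reads per gene with featureCounts (versions and strand setting not given in the sources used here), and deposited raw counts per gene for 2 sets of libraries. Columns not used numbered 0. Of 55471 cohort genes 55230 had a symbol in GENCODE M21; the sets were joined by symbols that occur once. Members and lists were chosen with earlier results of these data known. Tests were edgeR 4.0.16 quasi-likelihood F-tests (R 4.3.3, filterByExpr, TMM factors) with Benjamini-Hochberg adjustment at 0.05 and genotype as a block; DESeq2 1.42.0 was the alternative, and the fits were tested on simulated data. CPM used TMM-adjusted totals. SE is the absolute log2 fold change over the root of F, and log2 fold changes come from the fit. Named genes were the 8 of smallest p in each direction outside the hour genes with the same sign in both genotypes, 5 in each direction among hour genes and among genes called in both sets, the clock genes, Egr1 and Cidea, and up to 5 members of smallest p among those called in each list; not all of them are printed, and some genes are not reported here. Predicted genes were counted, not named. Derl3, Syvn1, Alg12, Calr, Hsp90b1, Pdia6, Cbs and the matrix genes were named after their values were seen, and 3 promoter words were chosen with results known. Python 3.11.15, pandas 2.3.3 and matplotlib 3.10.9 made summaries and plots. Alternatives were other scalings, filters, blocks and library subsets. Depth limits genes of a few reads.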

Additional observations from a re-analysis of the deposited data

Results flagged for a closer look

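In 284 groups of 4 libraries of one age, 23 named gene values (8.10%) lay far from the other 3. Among 4 replicates of one condition chance flags about 1 group in 20. The 4 libraries of an age differ in genotype and hour, so that rate does not apply here. KO_12m_L held 6 of the 23 values. It was highest at 12 months for Bhlhe41 (4.66 CPM), Cyp2a5 (687), Per1 (20.5), Socs2 (15.3) and Tspan4 (55.9), and lowest for Nfil3 (30.7). WT_12m_L was highest for Egr1 (55.6 CPM) and lowest for Gclc (445). Among 2-month libraries KO_2m_L was highest for Dbp (73.4 CPM), Pou2af1 (1.21) and Rtp4 (18.7) and lowest for Asl (912). KO_2m_H was highest for Chordc1 (70.5 CPM), Clock (32.2), Npas2 (0.241) and Stat5b (50.0). WT_2m_L was highest for mt-Co1 (20718 CPM) and mt-Nd5 (3392) and lowest for Per1 (13.2) and Tat (1769). WT_2m_H was highest for Cyp7a1 (173 CPM) and lowest for Hsph1 (116) and Pecam1 (16.6).

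The change between ages differed between L and H libraries, by edgeR's age-by-label term added after the data were seen, in 8 described genes. The hours differ too, ZT5 against ZT13 in H and ZT21 against ZT17 in L, so this term cannot part age from hour. The change in L minus that in H, in log2 units, was -2.19 for Col1a1, -1.63 for Col1a2, -1.80 for Col3a1, -1.52 for Col6a1, -1.69 for Col6a2, -2.48 for Eln and -2.27 for Loxl1. For Cry1 it was 1.34.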

How the results depend on the processing

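The count of genes called for age was 2080 with DESeq2's size factors, 2310 by DESeq2, 2948 with no filter on low counts, 1845 without the genotype block and 2174 with all 12 cohort libraries. With genotype and label together as a replicate block it was 1556. It was 135 (81 higher, 54 lower) in WT alone, 359 (141 and 218) in KO alone, 4014 (1735 and 2279) in H alone and 702 (324 and 378) in L alone. The joint fit with hour terms gave 768 (332 and 436), with 596 of 2085 called genes kept in their direction, and a log2 change over 1.2 as well gave 340 (226 and 114). Leaving out 1 library gave 1247 to 2141 genes (591 to 952 higher, 656 to 1189 lower). Outside the hour genes this range was 1108 to 1952 (504 to 848 higher, 604 to 1104 lower), with 1275 without WT_2m_H, 1108 without KO_2m_H, 1181 without WT_12m_H and 1221 without KO_12m_H. The age-by-genotype term had 2 genes by DESeq2 and 0 to 0 with a library left out. The hour test called 257 genes in 2 and 12 months alone and 873 by DESeq2, and the time course age test called 963 with ZT5, ZT13, ZT17 and ZT21 alone. The age-by-label term called 282 by DESeq2, 8 without KO_12m_H and 153 without KO_2m_L.

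Of 134 called genes named by the rule, 124 kept their direction in every alternative and 107 kept their call in all 8 fits with a library left out. The joint fit turned the direction of Abcb11 (-0.32), Ak4 (0.034), Bhlhe40 (0.41), Bhlhe41 (0.34), Ciart (0.024), Cry1 (0.010), Cyp2a5 (0.036), Elovl3 (-0.22), Hlf (0.27), Irs2 (-0.50), Nfil3 (-0.30), Nr1d2 (0.33), Nr1i3 (0.079), Thrsp (0.37) and Wee1 (0.15). Other turns were Bhlhe41 in KO alone (0.15) and L alone (0.28), Egr1 in KO alone (-0.21) and Hlf in L alone (0.12). Cry1 turned with the label block (0.086), in WT alone (0.051), in L alone (0.78) and with some libraries left out (-0.33 to 0.27 over the 8 fits). Nr1d1 turned without the genotype block (0.042), with all 12 libraries (0.0010), in WT alone (0.31), in H alone (0.31) and with some libraries left out (-0.23 to 0.19). The cause was not tested. Depth limits genes of a few reads, such as Cidea and Npas2 at 2 months. Single libraries per genotype, age and label leave no replicate that shares all 3.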
